A study of Homo sapiens with 12 samples.

Results

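Small nuclear RNA (snRNA) genes, the genes of the short RNAs at the core of the spliceosome, were described in total RNA from HCT116 cells, an established human colorectal carcinoma line. A row of the count table was taken when its Ensembl identifier mapped to a symbol that begins with RNU and a digit or with RNVU1- and when its estimated counts summed over the 12 libraries reached 20, so members were chosen by their symbol and selected on that sum. Of 63241 rows, 1831 carried such a symbol and 101 of these reached the minimum. By symbol, 33 were genes of RNAs made by RNA polymerase II (24 of U1, 2 of U4, 5 of U5, and RNU12 and RNU4ATAC), 1 was of the U6 type (RNU6ATAC), 39 were pseudogenes of the polymerase II families and 28 were U6 or U7 pseudogenes. GENCODE 29 names RNVU1-2, RNVU1-22, RNVU1-32 and RNVU1-34, placed here among the genes, as RNU1-13P, RNU1-120P, RNU1-106P and RNU1-85P. A member's total is thus a description and not a finding.

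As background, the major spliceosome holds U1, U2, U4, U5 and U6 snRNAs, each packed with proteins into a particle, and the minor spliceosome holds U11, U12, U4atac and U6atac in place of U1, U2, U4 and U6, with the same U5. U1 pairs with the 5′ splice site and U2 with the branch point. U4 holds U6 in check by base pairing until the catalytic core forms, and U5 aligns the exons. RNA polymerase II makes all of these except U6 and U6atac, which are made by RNA polymerase III, and both kinds of gene are switched on through the SNAPc complex. U7 is a polymerase II product that guides 3′ end processing of replication-dependent histone mRNAs.

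There were 4 groups of 3 libraries, taken from the sample titles. HCT116-POLR1A-AID cells, whose largest RNA polymerase I subunit carries a degron, received 1 µg/ml doxycycline to induce the OsTIR1 adapter 24 h ahead and then 500 µM indole-3-acetic acid (auxin) for 8 h. HCT116-POLR2A-AID2 cells, with a degron on the largest RNA polymerase II subunit, received the modified auxin 5-Ph-IAA at 1 µM for 8 h. Wild-type HCT116 cells received 5 µg/mL actinomycin D (ActD), a DNA intercalator that blocks transcription, for 6 h. The controls were wild-type HCT116 cells given DMSO for 8 h. The titles give those times, while the harvest text gives 6 h for every condition. No library came from a degron line without its ligand, so the line, the inducer and the ligand cannot be told apart from the loss of the polymerase. The 3 dishes of a group were handled on the same day and count as technical replicates, so p-values measure only the spread between dishes. Degrons remove protein, and protein was not analysed here.

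The sequences below, from GENCODE 29 on GRCh38, are of the members on which the results turn and of the family reference RNU1-1. They are given 5′ to 3′ as DNA letters. In RNU1-1 (chr1:16514122-16514285, minus strand) capitals mark the bases that pair with the 5′ splice site. In the other U1 sequences and in RNU4-2 they mark bases that differ from RNU1-1 and from RNU4-1, and the remaining sequences carry no capitals.
RNU1-1: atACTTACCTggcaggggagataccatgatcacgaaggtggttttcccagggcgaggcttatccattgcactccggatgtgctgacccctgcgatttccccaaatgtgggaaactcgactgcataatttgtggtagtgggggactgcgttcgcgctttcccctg
RNVU1-31: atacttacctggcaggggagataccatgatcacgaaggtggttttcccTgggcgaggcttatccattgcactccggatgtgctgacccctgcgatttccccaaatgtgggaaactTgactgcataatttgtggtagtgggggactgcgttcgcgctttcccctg
RNVU1-7: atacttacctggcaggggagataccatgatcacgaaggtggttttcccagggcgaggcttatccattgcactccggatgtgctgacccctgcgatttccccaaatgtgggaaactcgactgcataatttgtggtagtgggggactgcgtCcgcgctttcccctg
RNU1-67P: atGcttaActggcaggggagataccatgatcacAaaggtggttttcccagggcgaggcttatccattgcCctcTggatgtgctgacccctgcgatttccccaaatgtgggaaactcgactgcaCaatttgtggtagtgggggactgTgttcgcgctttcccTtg
RNVU1-34: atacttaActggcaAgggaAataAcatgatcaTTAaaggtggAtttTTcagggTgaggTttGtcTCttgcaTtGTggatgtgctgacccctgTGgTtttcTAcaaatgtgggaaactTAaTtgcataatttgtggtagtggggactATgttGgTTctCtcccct
RNU4-1: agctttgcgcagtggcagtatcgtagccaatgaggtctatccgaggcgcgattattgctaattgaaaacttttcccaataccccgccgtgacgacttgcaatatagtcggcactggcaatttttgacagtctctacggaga
RNU4-2: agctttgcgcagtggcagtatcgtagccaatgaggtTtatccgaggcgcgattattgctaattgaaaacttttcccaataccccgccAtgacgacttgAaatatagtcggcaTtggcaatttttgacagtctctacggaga
RNU12: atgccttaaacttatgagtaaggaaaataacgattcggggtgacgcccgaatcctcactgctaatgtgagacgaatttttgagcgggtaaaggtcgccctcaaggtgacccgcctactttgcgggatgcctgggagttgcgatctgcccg
RNU6ATAC: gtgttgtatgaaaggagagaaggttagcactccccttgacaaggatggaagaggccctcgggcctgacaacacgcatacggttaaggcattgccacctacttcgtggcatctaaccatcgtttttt

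The U1 sequences are shown because the 2 best-counted U1 rows were not those of the reference gene. RNVU1-31, a U1 variant gene at chr1:145465617-145465780 on the minus strand, differs from RNU1-1 by A49T and C116T, with positions counted from 1 at the 5′ end and the RNU1-1 base first. RNVU1-7 (chr1:148038753-148038916, minus strand) differs by T150C alone. RNU1-67P (chrX:119423742-119423905, plus strand) lies in an intron of SLC25A43, on that gene's strand, and differs by 8 bases, of which A3G and C8A fall in the stretch that pairs with the splice site. RNVU1-34 (chr17:58679527-58679690, minus strand) differs at 34 positions and lacks 2 bases of RNU1-1. It lies in an intron of TEX14, a gene of germ cell division, on the same strand.

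Among the 23 Pol II made U1 members with a sequence, the splice site letters ACTTACCT stood in the first 12 bases of 14 (60.9%). The share was 5 of 21 U1 pseudogene members (23.8%) and 33 of the 98 other U1 rows of the table (33.7%). The letters AATTTGTGG around the Sm site, where the ring of Sm proteins binds U1, stood in 19 of 23 (82.6%), 15 of 21 (71.4%) and 30 of 98 (30.6%). Both motifs were read on the RNA strand only, where they do not overlap. The rows RNU1-1, RNU1-3, RNVU1-18 and RNVU1-29 are members with an identical RNA sequence, which RNU1-2, RNU1-4, RNU1-27P and RNU1-28P share below the minimum, so the estimated counts of these 8 rows divided reads that could have come from any of them. RNVU1-8 had no entry in that annotation, and its position and sequence are not given.

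**Figure D1:**
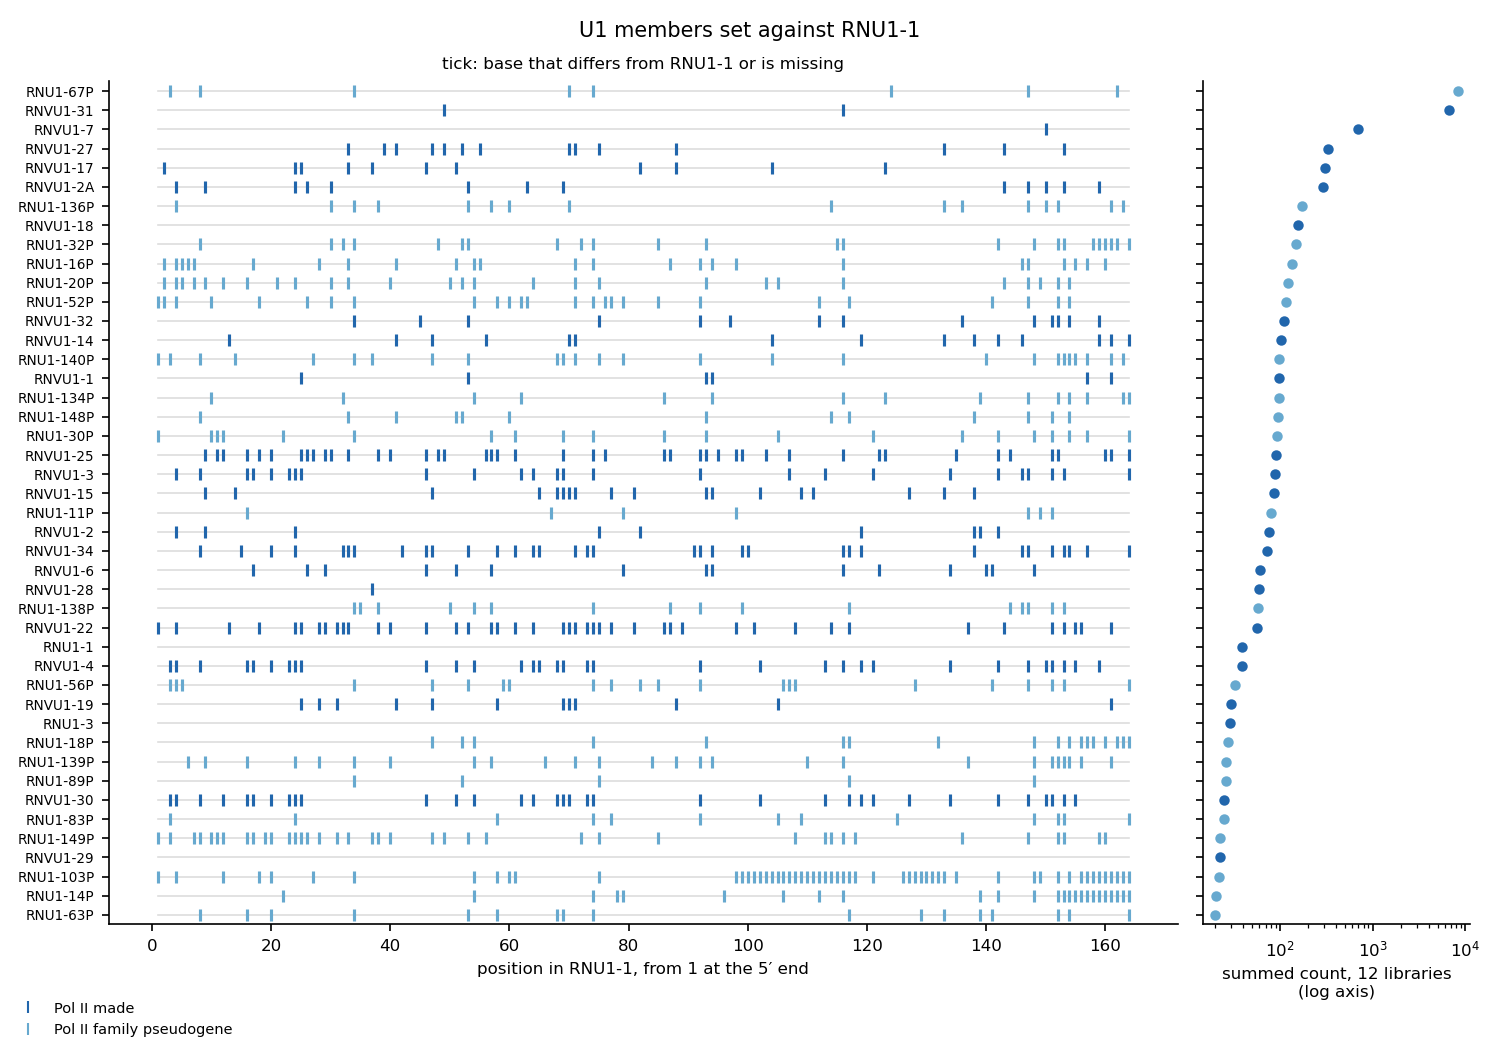
Positions at which each U1 member with a sequence differs from RNU1-1 (left, ticks, counted from 1 at the 5′ end; rows in order of summed count) and its summed count over 12 libraries (right, log axis). RNU1-67P and RNVU1-31, at the top, carry 8 and 2 differences, while RNVU1-34 carries 34.

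The other families were read the same way. RNU4-1 (chr12:120293097-120293237) and RNU4-2 (chr12:120291763-120291903) are neighbours on the minus strand and differ by C37T, G88A, C99A and C113T. RNU2-2P (chr11:62841619-62841809, minus strand) overlaps an exon of WDR74 on the same strand and differs from RNU2-1 by G108A, C109A, A110T, G111A, C170T, C187T, C189T and T191C. Its symbol ends in P, so the rule places it among the pseudogenes, although it is known as an expressed U2 gene. RNU12 lies at chr22:42615244-42615393 on the plus strand, inside an exon of a long noncoding RNA gene of that strand. RNU6ATAC lies at chr9:134164439-134164564 on the minus strand and overlaps no other gene.

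Most counts came from few rows. RNU2-2P, RNU1-67P, RNU4-1, RNVU1-31 and RNU4-2 had 12333, 8276, 7739, 6573 and 6219 counts over the 12 libraries and together held 84% of the members' counts. Of the 101 members, 76 had under 100 counts and 50 of these had under 50. Per kilobase, the mean level over all libraries was 290 CPM (counts scaled to a common library total) for RNU2-2P, 247 for RNU4-1, 229 for RNU1-67P, 198 for RNU4-2 and 181 for RNVU1-31. The next were RNVU1-7 at 18.7, RNU5E-1 at 12.8, RNU12 at 12.3 and RNU5A-1 at 10.6 CPM per kilobase. RNU6ATAC, further down, stood at 5.72 CPM per kilobase. Of the 1730 rows under the minimum, 966 were at 0 in every library. The U6 genes RNU6-1, RNU6-2, RNU6-7, RNU6-8 and RNU6-9, as well as RNU2-1 and RNU11, were listed at 0 throughout, and RNU7-1 had 1.12 counts in all. The members just inside the minimum were RNU4-31P, RNU6-1045P and RNU6-319P with 20.0 counts each, and RNU1-28P with 19.89, RNU6-201P with 19.83 and RNU1-19P with 19.78 counts were just outside.

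Library totals ran between 11289272 and 27394059 counts, and the ActD libraries were deeper than those of the other groups except POLR1A-depleted libraries 2 and 3, which exceeded ActD library 1. Scaled by TMM, the members summed to between 157 and 166 CPM in POLR1A-depleted libraries, 69.3 and 194 CPM in POLR2A-depleted, 262 and 311 CPM in ActD and 211 and 359 CPM in control libraries. Control library 1 and POLR2A-depleted library 2 stood low in their groups, at 211 and 69.3 CPM. The summed level of 317 small nucleolar and Cajal body RNA genes, another set of short RNAs, moved beside it, between 641 and 816 CPM in POLR1A-depleted libraries, 519 and 966 CPM in POLR2A-depleted, 1294 and 1448 CPM in ActD and 750 and 1263 CPM in control libraries. Its part in the snRNA values was not tested. Fewer snRNAs per cell and a changed total of other RNA cannot be told apart in values of this kind. The 9 epithelial markers were present in each group (summed 2006 to 2153, 2412 to 2613, 3229 to 3509 and 3572 to 4040 CPM in the same order), and 15 markers of other cell types summed to 97.8 to 102, 57.7 to 64.7, 126 to 130 and 111 to 128 CPM. In controls 5 of those 15 were at 0. Of 9 of the 15 that were tested, 2 were higher and 1 lower with POLR1A depleted, 5 and 1 with POLR2A depleted and 2 and 0 with ActD. Of the 9 epithelial markers, 2 were higher and 5 lower, 3 and 5, and 2 and 4 in that order. Over all genes tested, 20.6% were higher and 18.6% lower, 33.2% and 28.2%, and 24.9% and 28.5%. With POLR2A depleted LYZ, COL3A1 and PTPRC had log2 fold changes of 4.35 ± 0.83, 3.68 ± 0.80 and 2.34 ± 0.75, and DES had 3.11 ± 0.35 with POLR1A depleted. SYT1, the marker of other cell types called lower, had -1.58 ± 0.06 with POLR2A depleted and -0.60 ± 0.06 with POLR1A depleted. Among the epithelial markers, CDH1 and KRT18 had -1.79 ± 0.07 and -1.23 ± 0.07 with POLR1A depleted. The 2 higher there were CLDN4 and ELF3, at 0.41 ± 0.07 and 0.29 ± 0.10. With POLR2A depleted the 3 higher, beside 5 lower, were CDH17, ELF3 and EPCAM, at 4.34 ± 0.74, 0.47 ± 0.10 and 0.34 ± 0.05. The part of these markers in the snRNA values was not tested.

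Levels fell for many tested snRNA genes in both degron lines and for fewer with ActD. Only 39 of the 101 members had counts enough to be tested (22 Pol II made, 14 polymerase II family pseudogenes, RNU6ATAC and 2 U6 pseudogenes). The filter asked for about 0.551 CPM in 3 libraries, and 14 of the 39 met it in at least 2 groups taken alone, while 11 met it in controls alone (RNVU1-15, RNVU1-22, RNVU1-25, RNVU1-34, RNU4ATAC, RNU6ATAC, RNU2-63P and 4 U1 pseudogenes). Those 11 were tested only through the group where they are high, so lower values in the treatments were partly built in by the filter, and their p-values are given as a description. With POLR1A depleted, 15 of the 39 were lower and 0 higher at an adjusted p under 0.05 (edgeR's quasi-likelihood test with Benjamini-Hochberg adjustment over 23593 genes), while 18.6% of all genes tested were lower and 20.6% higher. With POLR2A depleted 22 were lower and 0 higher, beside 28.2% of all genes lower and 33.2% higher. With ActD 8 were lower and 0 higher, beside 28.5% lower and 24.9% higher, so the share of the tested members (20.5%) was under that of all genes. At an unadjusted p under 0.05, 0 members were higher in any of these comparisons, and DESeq2 called 0 higher too. The shares of the 39 were 38.5% in the POLR1A line and 56.4% in the POLR2A line. Among the 14 that passed the filter in several groups, 6, 10 and 1 were lower in POLR1A-depleted, POLR2A-depleted and ActD libraries.

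The median log2 fold change of the 39 was -1.15 in the POLR1A line, -1.42 in the POLR2A line and -0.38 after ActD, against 0.01, 0.08 and -0.06 over all genes tested. By class, 10 of 22 tested Pol II made members were lower in the POLR1A line, 14 in the POLR2A line and 5 after ActD. Of the 14 tested polymerase II family pseudogenes, 4, 7 and 1 were lower in that order. Leaving out POLR1A-depleted library 3, POLR1A-depleted library 1 or control library 2 gave 8, 9 and 9 calls with POLR1A depleted, and leaving out POLR2A-depleted library 2 or control library 2 gave 14 with POLR2A depleted. The calls that held without each single library in turn were RNU1-67P, RNVU1-34, RNVU1-8 and RNU4-1 with POLR1A depleted, 11 of 22 with POLR2A depleted (these 4 with RNU1-148P, RNVU1-15, RNVU1-22, RNVU1-25, RNU12, RNU2-63P and RNU5E-1) and 6 of 8 with ActD (all but RNU12 and RNU6-759P). The 6 held with ActD all met the filter in controls alone, and so did RNVU1-34 with POLR1A depleted. With POLR2A depleted the same holds for RNU1-148P, RNVU1-15, RNVU1-22, RNVU1-25, RNVU1-34 and RNU2-63P. Holding is no support for these calls, as their lower values were partly built in. Without control library 1 and POLR2A-depleted library 2 together, a choice made after seeing the data, the counts were 17, 17 and 13 lower of 48 tested, beside 17.1%, 26.1% and 25.3% of all genes.

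**Figure D2:**
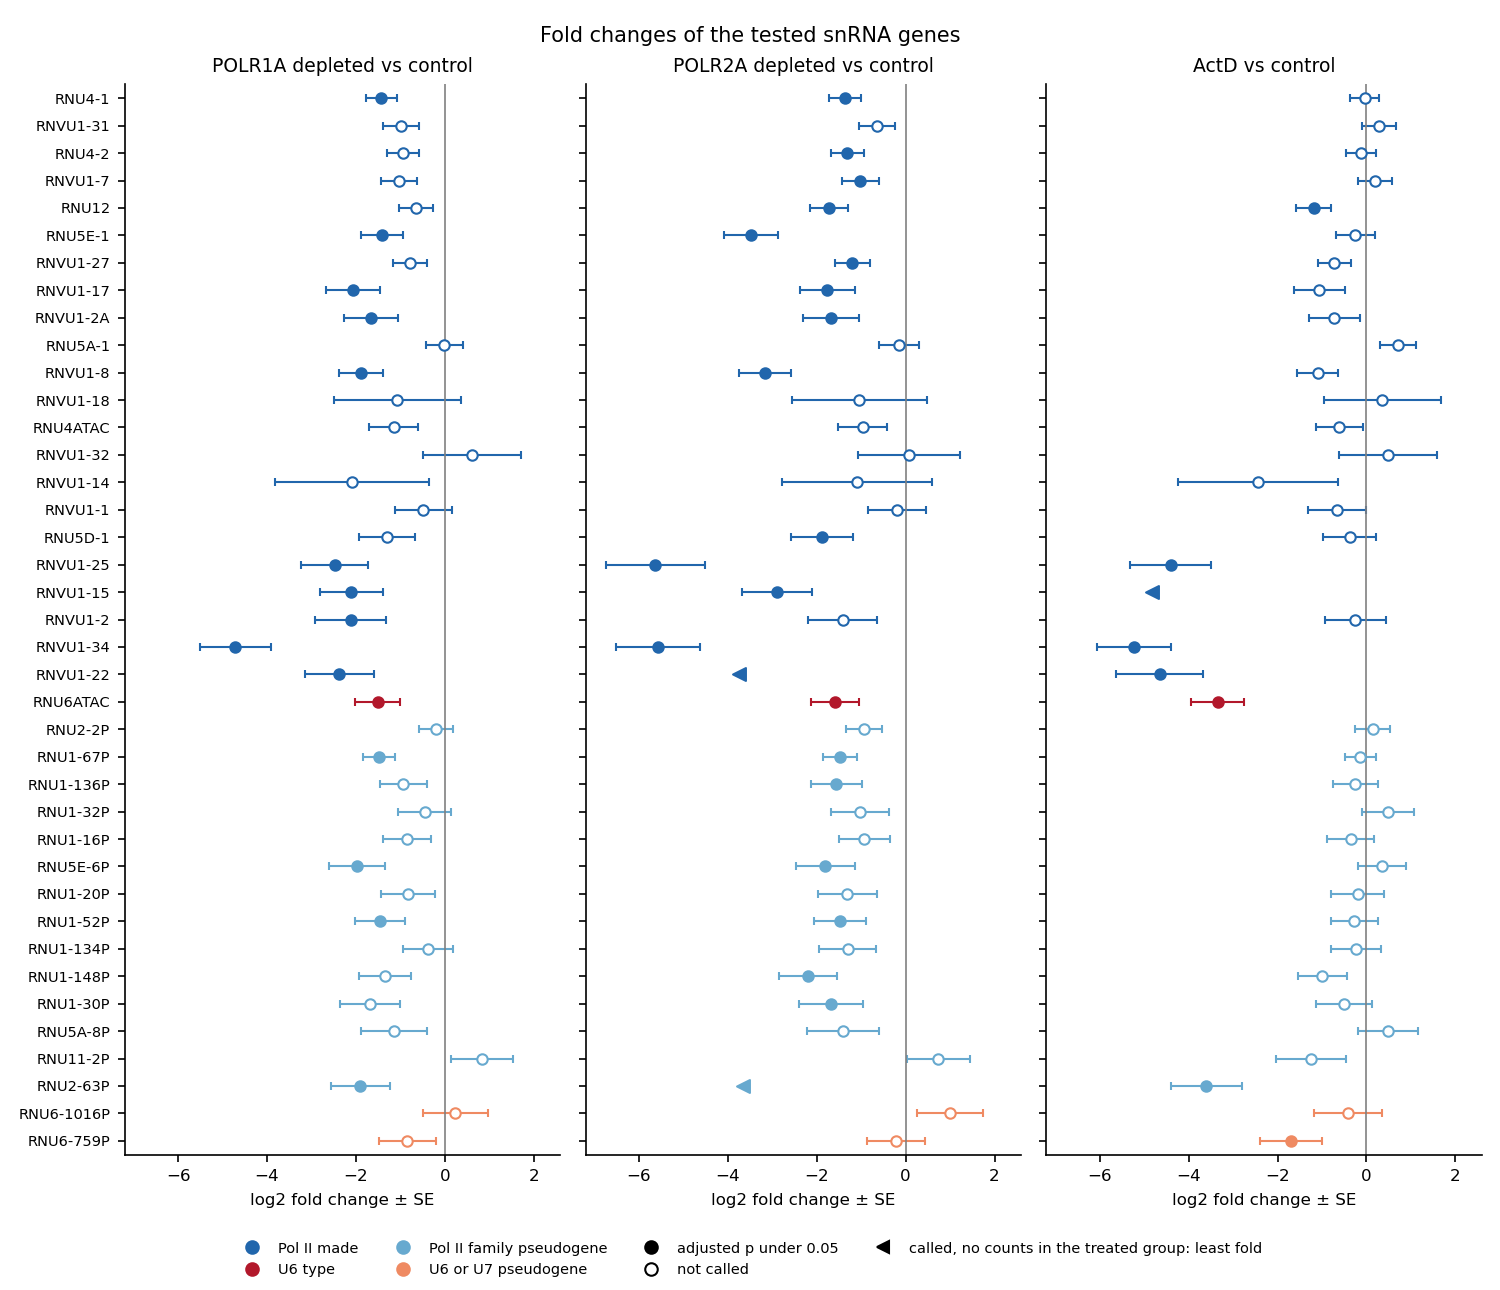
Log2 fold change against controls with its standard error for the 39 tested members in each treatment, coloured by class; filled points passed an adjusted p of 0.05 and triangles mark the least fold for members with no counts in the treated group. RNU4-1 sits at -1.43, -1.36 and -0.04, and RNVU1-34 far to the left in all 3 panels.

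U1 gave the most members. RNU1-67P had 20.2, 21.0 and 20.1 CPM with POLR1A depleted, 28.6, 9.12 and 24.6 CPM with POLR2A depleted, 54.9, 52.4 and 48.7 CPM with ActD, and 34.7, 71.7 and 63.9 CPM in controls. Both degron groups lay below every control library, while the ActD libraries lay inside the control range. Its log2 fold changes were -1.48 ± 0.37 (SE; edgeR adjusted p = 0.0124) with POLR1A depleted and -1.48 ± 0.39 (adjusted p = 0.00931) with POLR2A depleted, against -0.14 ± 0.35 (adjusted p = 0.785) with ActD. The POLR2A call of RNU1-67P was lost when only the 2 groups compared were fitted. SLC25A43, the mitochondrial carrier gene in whose intron it lies, averaged 10.9 ± 1.23, 17.4 ± 0.578 and 19.7 ± 0.754 CPM in those treatments and 13.3 ± 0.654 CPM in controls (SD, n = 3 each), so the host was lower than in controls in the POLR1A line and higher in the POLR2A line and after ActD (log2 fold changes -0.28, 0.40 and 0.57, edgeR adjusted p = 0.0371, 0.00229 and 4.94e-05).

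RNVU1-31, the U1 variant closest in count, had 15.25, 21.6 and 16.9 CPM with POLR1A depleted, 33.8, 9.71 and 24.9 CPM with POLR2A depleted, 46.0, 38.4 and 44.9 CPM with ActD, and 22.95, 42.6 and 39.95 CPM in controls. The POLR1A-depleted libraries lay below the controls, and the other 2 treatments overlapped them. None of its fold changes against controls passed (-0.98 ± 0.40, edgeR adjusted p = 0.0902; -0.65 ± 0.41, adjusted p = 0.2003; 0.28 ± 0.38, adjusted p = 0.580). RNVU1-7 had 1.71, 2.68 and 1.38 CPM with POLR1A depleted, 2.15, 2.13 and 1.49 CPM with POLR2A depleted, 5.71, 3.90 and 3.99 CPM with ActD, and 1.40, 4.26 and 6.02 CPM in controls. Control library 1 was as low as the degron libraries, and the POLR2A call (-1.02 ± 0.41, edgeR adjusted p = 0.0435) was lost without any of 5 single libraries, with an adjusted p up to 0.218.

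RNVU1-34 was close to absent in all 3 treatments, though it met the filter on low counts in controls alone, so that a lower level elsewhere was partly built in. It had 0, 0.0893 and 0.0461 CPM with POLR1A depleted, 0.0670, 0 and 0 CPM with POLR2A depleted, 0, 0.0398 and 0.0470 CPM with ActD, and 0.859, 1.68 and 1.64 CPM in controls. The groups were far apart, with 3, 1 and 2 counts in the treated groups against 67 in controls. The level ratios were 0.0329 (0.00663 to 0.101), 0.0159 (0.000396 to 0.0914) and 0.0214 (0.00254 to 0.0805), with exact 95% intervals that cover counting error only, and the edgeR adjusted p-values were 4.61e-05, 2.92e-05 and 1.49e-05. TEX14, its host, averaged 2.85 ± 0.226, 31.1 ± 1.98 and 2.10 ± 0.609 CPM in the 3 treatments and 1.96 ± 0.782 CPM in controls (SD, n = 3), a log2 fold change of 4.01 with POLR2A depleted (edgeR adjusted p = 4.90e-12). RNU1-52P, a pseudogene that also lies in an intron of TEX14, had 0.311, 0.313 and 0.277 CPM, then 0.469, 0.237 and 0.166 CPM, then 0.970, 0.677 and 0.423 CPM in those treatments, and 0.703, 1.20 and 0.584 CPM in controls. Both degron groups of RNU1-52P were below the controls (-1.45 ± 0.56, edgeR adjusted p = 0.0435; -1.48 ± 0.58, adjusted p = 0.0335), but the calls were lost without any of 5 and any of 3 single libraries. RNU1-52P too met the filter in controls alone.

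Other U1 variants had 0 or 1 counts in a whole group, and the 3 given here met the filter in controls alone, which partly builds in their lower values. RNVU1-15 had 0 counts with ActD against 61 in controls, at least 28.3-fold lower against a limit of 3 counts for the whole group (edgeR adjusted p = 2.29e-05). RNVU1-22 had 0 counts with POLR2A depleted against 43 in controls, at least 13.5-fold lower (adjusted p = 0.000220). RNVU1-25 had 1 count with POLR2A depleted against 69 in controls, a ratio of 0.0154 (0.000384 to 0.0887). All of these were also lower in the other treatments. RNVU1-15 had log2 fold changes of -2.10 ± 0.70 with POLR1A depleted and -2.90 ± 0.79 with POLR2A depleted, RNVU1-22 had -2.37 ± 0.77 with POLR1A depleted, and RNVU1-25 had -2.48 ± 0.76 with POLR1A depleted and -4.40 ± 0.91 with ActD. The POLR1A calls of these 3 genes were lost without 4, 4 and 2 of 6 single libraries, while their POLR2A and ActD calls held without any single library.

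RNVU1-8 had 0.415, 0.581 and 0.553 CPM with POLR1A depleted, 0.335, 0 and 0.332 CPM with POLR2A depleted, 0.917, 0.836 and 0.940 CPM with ActD, and 1.56, 2.52 and 1.69 CPM in controls. Every treated library lay below every control, and the falls passed in the degron lines (-1.88 ± 0.50, edgeR adjusted p = 0.00405; -3.16 ± 0.59, adjusted p = 8.78e-05) and missed the threshold with ActD (-1.10 ± 0.47, adjusted p = 0.0557). RNVU1-17 and RNVU1-2A were lower in both degron lines, with log2 fold changes of -2.07 ± 0.61 and -1.66 ± 0.60 with POLR1A depleted and -1.76 ± 0.62 and -1.68 ± 0.63 with POLR2A depleted, calls that were each lost without control library 1, among others, with adjusted p up to 0.223. RNVU1-27 was lower with POLR2A depleted (-1.20 ± 0.40, edgeR adjusted p = 0.0137) and RNVU1-2 with POLR1A depleted (-2.12 ± 0.79, adjusted p = 0.0371). Of 6 runs that left out a single library, the RNVU1-27 call held in 4 and the RNVU1-2 call in 2. The highest edgeR adjusted p-values were 0.075 and 0.241. The RNVU1-2 call was also lost with DESeq2. RNVU1-1, RNVU1-14, RNVU1-18 and RNVU1-32 passed in no comparison with controls, and their group means ran between 0.216 and 1.14 CPM.

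Among the tested U1 pseudogenes, RNU1-136P and RNU1-148P were lower with POLR2A depleted (-1.56 ± 0.57, edgeR adjusted p = 0.0224; -2.20 ± 0.65, adjusted p = 0.00600). Both met the filter in controls alone, so their lower values were partly built in. The RNU1-136P call was lost without POLR2A-depleted library 2 or control library 2 (highest edgeR adjusted p 0.098). RNU1-136P averaged 0.624 ± 0.179 CPM with POLR1A depleted, 0.414 ± 0.308 CPM with POLR2A depleted, 1.01 ± 0.380 CPM with ActD and 1.19 ± 0.156 CPM in controls (SD, n = 3 each). RNU1-32P and RNU1-16P, next in level, passed in no comparison with controls. The 9 Pol II made U1 members too low to test were RNU1-1, RNU1-3, RNVU1-3, RNVU1-4, RNVU1-6, RNVU1-19, RNVU1-28, RNVU1-29 and RNVU1-30, with group means of at most 1.01 CPM. Of these, RNVU1-6 had 0 counts with POLR2A depleted and 1 count with ActD against 50 in controls, at least 15.7-fold lower and a ratio of 0.0144 (0.000356 to 0.0837). With POLR1A depleted it had 11 counts, so it reached the minimum of 20 only through controls, which partly builds in its lower values. The control libraries were uneven, with 3, 27 and 20 counts, and library 1 (0.234 CPM) lay below POLR1A-depleted library 3 (0.323 CPM). The 4 members with the canonical RNU1-1 sequence summed to 0.830, 1.70 and 0.922 CPM with POLR1A depleted, 0, 0 and 1.41 CPM with POLR2A depleted, 1.24, 1.91 and 0.987 CPM with ActD, and 2.19, 0.600 and 1.34 CPM in controls. These overlapped in every comparison.

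The U4 genes, whose RNA unwinds from U6 at activation, had lower means in the degron lines than in controls, though RNU4-2 passed only with POLR2A depleted. RNU4-1 had 18.6, 18.8 and 19.4 CPM with POLR1A depleted, 29.15, 11.6 and 19.1 CPM with POLR2A depleted, 50.9, 51.0 and 47.2 CPM with ActD, and 28.8, 65.0 and 57.9 CPM in controls. POLR1A-depleted libraries lay below all controls, and POLR2A-depleted library 1 just above control library 1. Log2 fold changes were -1.43 ± 0.35 (edgeR adjusted p = 0.0104), -1.36 ± 0.36 (adjusted p = 0.00962) and -0.04 ± 0.33 (adjusted p = 0.948), and the first 2 calls held without any single library. The POLR2A call of RNU4-1 was lost when only the 2 groups compared were fitted. RNU4-2 had 19.9, 21.0 and 20.1 CPM with POLR1A depleted, 25.4, 9.77 and 12.5 CPM with POLR2A depleted, 38.1, 35.8 and 35.0 CPM with ActD, and 22.7, 52.1 and 42.2 CPM in controls. Its fall passed with POLR2A depleted (-1.31 ± 0.38, edgeR adjusted p = 0.0149) and not with POLR1A depleted (-0.95 ± 0.36, adjusted p = 0.0667). The POLR2A call of RNU4-2 was lost without POLR2A-depleted library 3 or control library 2 (highest adjusted p 0.0524), and when only the 2 groups compared were fitted.

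RNU2-2P, the best-counted member, had 55.6, 49.3 and 60.5 CPM with POLR1A depleted, 51.3, 12.8 and 35.7 CPM with POLR2A depleted, 81.8, 53.5 and 74.7 CPM with ActD, and 51.7, 61.9 and 75.4 CPM in controls. The POLR2A-depleted libraries lay below the lowest control, library 1 narrowly, and the other treatments overlapped the controls. No fold change against controls passed (-0.20 ± 0.39, edgeR adjusted p = 0.749; -0.94 ± 0.41, adjusted p = 0.0803; 0.14 ± 0.39, adjusted p = 0.798). WDR74, the ribosome assembly gene it overlaps, averaged 40.6 ± 3.10, 40.9 ± 1.18 and 16.4 ± 0.135 CPM in the same treatments and 65.7 ± 7.43 CPM in controls (SD, n = 3), a log2 fold change of -2.01 with ActD (edgeR adjusted p = 1.07e-14). RNU2-63P, a U2 pseudogene outside other genes that met the filter in controls alone, had 0 counts with POLR2A depleted against 40 in controls, at least 12.55-fold lower (edgeR adjusted p = 9.31e-05), and log2 fold changes of -1.90 ± 0.67 with POLR1A depleted and -3.6 ± 0.79 with ActD (adjusted p = 0.0299 and 0.000670). Its POLR1A call held in only 1 of 6 runs that left out a single library (highest edgeR adjusted p 0.156). That call was also lost with DESeq2.

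In the U5 family, RNU5E-1 had 0.415, 1.16 and 1.38 CPM with POLR1A depleted, 0.335, 0 and 0.415 CPM with POLR2A depleted, 1.995, 2.55 and 2.21 CPM with ActD, and 1.64, 3.42 and 2.92 CPM in controls. Both degron groups were below the controls and the ActD libraries were among them. The long noncoding RNA gene AL021155.2, whose exon holds RNU5E-1 on the same strand, had log2 fold changes of -0.98, 1.5 and 0.14 in these treatments (edgeR adjusted p = 0.000863, 1.36e-06 and 0.584). For RNU5E-1 the falls were -1.42 ± 0.47 (edgeR adjusted p = 0.0223) and -3.48 ± 0.60 (adjusted p = 7.04e-05), with -0.25 ± 0.44 for ActD. RNU5E-6P, a U5 pseudogene, was likewise lower in both degron lines (-1.97 ± 0.63, edgeR adjusted p = 0.0162; -1.81 ± 0.66, adjusted p = 0.0214). RNU5D-1 fell with POLR2A depleted (-1.89 ± 0.70, adjusted p = 0.0238). Of these U5 calls, that of RNU5E-1 with POLR2A depleted held without any single library, while its POLR1A call was lost without POLR1A-depleted library 1, control library 2 or control library 3, and those of RNU5E-6P and RNU5D-1 were each lost without control library 2, among others. RNU5A-1, the U5 reference gene, had 0.986, 0.893 and 1.34 CPM with POLR1A depleted, 0.804, 0.533 and 1.66 CPM with POLR2A depleted, 2.48, 1.27 and 1.60 CPM with ActD, and 1.17, 1.32 and 0.759 CPM in controls, and passed in no comparison. RNU5B-1 and RNU5F-1 were too low to test, with 65.4 and 30.0 counts in all.

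**Figure D3:**
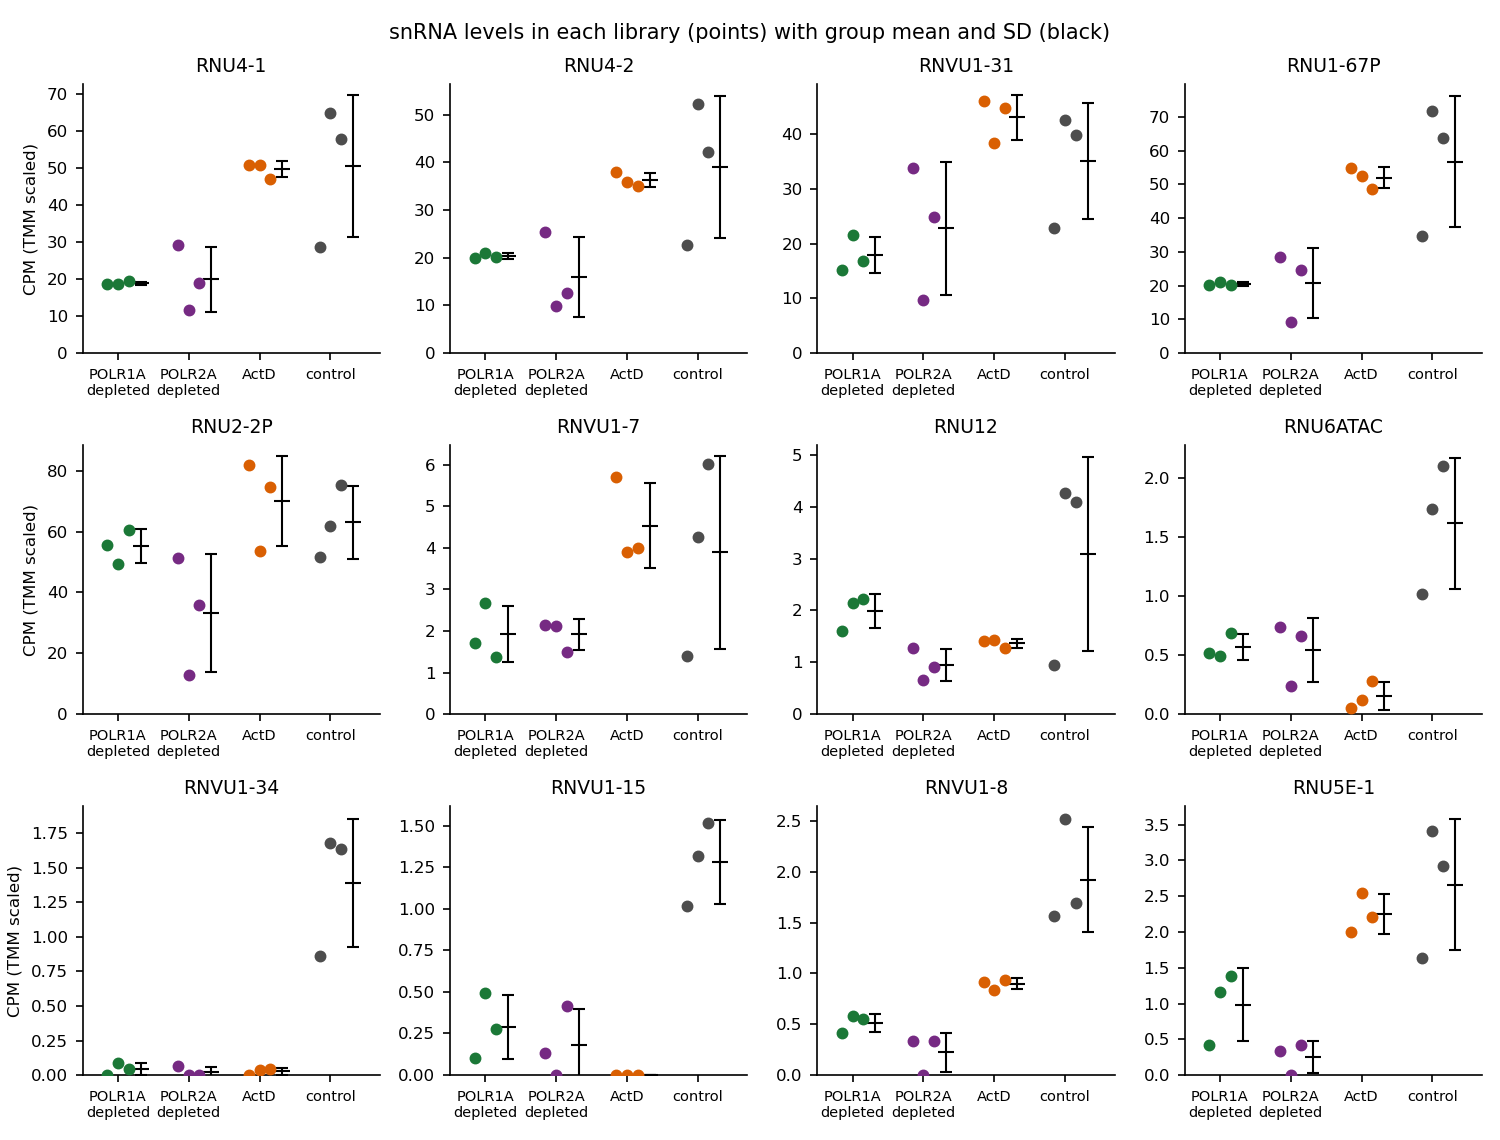
TMM-scaled CPM of 12 members in every library (points; black, mean ± SD of 3), in POLR1A-depleted, POLR2A-depleted, ActD and control libraries, each panel with its own axis from 0. RNU4-1, RNU4-2, RNU1-67P and RNVU1-31 are near control levels with ActD and have lower means in the degron lines. Of these falls, those of RNVU1-31 passed in neither line and that of RNU4-2 did not pass with POLR1A depleted. RNU6ATAC is lowest with ActD, at 0.0539 to 0.282 CPM.

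Among the minor spliceosome members, RNU12 and RNU6ATAC were lower with ActD. RNU12, whose RNA recognises the branch point of minor introns, had 1.61, 2.14 and 2.21 CPM with POLR1A depleted, 1.27, 0.652 and 0.912 CPM with POLR2A depleted, 1.40, 1.43 and 1.27 CPM with ActD, and 0.937, 4.26 and 4.09 CPM in controls. Control library 1 lay among the treated libraries. RNU12 fell with POLR2A depleted (-1.73 ± 0.43, edgeR adjusted p = 0.00159) and with ActD (-1.19 ± 0.40, adjusted p = 0.0155), and the ActD call was lost without ActD library 3, control library 2 or control library 3. Z93241.1, the long noncoding RNA gene whose exon holds RNU12 on the same strand, was lower too (log2 fold changes -2.28, -1.01 and -0.90; edgeR adjusted p = 7.69e-06, 0.00846 and 0.0165), and as overlapping genes of 1 strand both rows are uncertain. RNU4ATAC, the partner of U6atac, averaged 0.416 ± 0.191, 0.475 ± 0.0608, 0.612 ± 0.374 and 0.932 ± 0.334 CPM in POLR1A-depleted, POLR2A-depleted, ActD and control libraries (SD, n = 3) and passed in no comparison. RNU11-2P, the U11 pseudogene, was higher in both degron lines than with ActD, as given with the direct comparisons.

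RNU6ATAC, the catalytic RNA of the minor spliceosome and the single member made by RNA polymerase III by its symbol, had 0.519, 0.491 and 0.691 CPM with POLR1A depleted, 0.737, 0.237 and 0.663 CPM with POLR2A depleted, 0.0539, 0.119 and 0.282 CPM with ActD, and 1.02, 1.74 and 2.10 CPM in controls. All treated libraries lay below all controls, the one group in which it met the filter, so its lower values were partly built in. The log2 fold changes were -1.51 ± 0.51 (edgeR adjusted p = 0.0217), -1.59 ± 0.53 (adjusted p = 0.0132) and -3.35 ± 0.59 (adjusted p = 4.94e-05). The ActD call held without any single library, while the POLR1A call was lost without 4 of 6 and the POLR2A call without POLR2A-depleted library 2 or control library 3.

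The level was also tested between treatments, without the controls. ActD against POLR1A depletion gave 7 members higher and 3 lower of 39, where 24.4% and 31.8% of all genes were higher and lower, so the calls were no more frequent among tested members than among all genes. RNU4-1 (1.39 ± 0.34, edgeR adjusted p = 0.00760), RNU1-67P (1.35 ± 0.37, adjusted p = 0.0129), RNVU1-31 (1.26 ± 0.39, adjusted p = 0.0233) and RNVU1-7 (1.23 ± 0.39, adjusted p = 0.0150) were higher with ActD, with no overlap of libraries. RNU5E-1, RNU5E-6P and RNVU1-2 made up the 7. As RNU5E-6P met the filter in ActD libraries alone, its higher level there was partly built in. RNU6ATAC (-1.84 ± 0.61, adjusted p = 0.0141), RNVU1-15 and RNU11-2P (-2.08 ± 0.74, adjusted p = 0.0204) were lower with ActD.

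ActD against POLR2A depletion gave 11 members higher and 3 lower, beside 31.1% and 39.8% of all genes, so both shares (28.2% and 7.69%) were under those of all genes. RNU4-1 (1.33 ± 0.35, edgeR adjusted p = 0.00880), RNU4-2 (1.19 ± 0.37, adjusted p = 0.0189), RNU1-67P (1.35 ± 0.38, adjusted p = 0.0122), RNU2-2P (1.08 ± 0.41, adjusted p = 0.0408), RNU5E-1 (3.24 ± 0.60, adjusted p = 0.000112) and RNVU1-8 (2.06 ± 0.60, adjusted p = 0.00462) were among those higher with ActD, and RNU6ATAC was again lower (-1.76 ± 0.64, adjusted p = 0.0183), as was RNU11-2P (-1.97 ± 0.76, adjusted p = 0.0253). RNU1-32P and RNU5E-6P, also called higher with ActD, met the filter in ActD libraries alone, so their higher levels were partly built in. The medians of the 39 were 0.63 and 1.11 in the comparisons of ActD with POLR1A and POLR2A depletion, against -0.12 and -0.18 over all genes. POLR1A against POLR2A depletion gave 5 members higher and 0 lower, beside 29.1% and 33.2% of all genes, with 5 and 0 at an unadjusted p under 0.05. Of these, RNU12 (1.08 ± 0.43, adjusted p = 0.0366) and RNU5E-1 (2.06 ± 0.64, adjusted p = 0.00914) had libraries that did not overlap, and so had RNU2-63P, while RNVU1-22 and RNVU1-25 overlapped.

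The choice of scale bears on the ActD values. Scaled to the 13 mitochondrially encoded mRNAs, RNU4-1, RNU4-2 and RNU1-67P were 0.95, 0.86 and 0.84 above controls with ActD on the log2 scale, where the median of all genes was 0.82 above, and 9 members were then called higher and 6 lower. The share of all genes called under that scale is not given here. Under that scale the median log2 fold change of the 39 was -0.85 in the POLR1A line, -1.7 in the POLR2A line and 0.57 after ActD, against 0.37, -0.2 and 0.82 over all genes, so it stayed below the median of all genes in each.

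Summed by class, the Pol II made members had 65.3, 78.5 and 72.8 CPM with POLR1A depleted, 100.3, 37.4 and 71.4 CPM with POLR2A depleted, 158, 144 and 147 CPM with ActD, and 104, 200.1 and 174 CPM in controls. Both degron groups lay below every control library and ActD within their range. The mean log2 differences from controls were -1.09, -1.25 and -0.03. The polymerase II family pseudogenes summed to 85.7, 79.1 and 87.9 CPM, then 87.5, 27.0 and 68.5 CPM, then 151, 116 and 134 CPM in the treatments, and 99.5, 153 and 153 CPM in controls, with log2 differences of -0.66, -1.28 and 0.00. RNU1-67P and RNU2-2P made up most of that sum, and without them the 37 remaining rows averaged 8.71 ± 1.295, 6.98 ± 1.64, 11.5 ± 2.26 and 15.4 ± 3.25 CPM (SD, n = 3) in POLR1A-depleted, POLR2A-depleted, ActD and control libraries.

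The U6 and U7 pseudogenes were lowest with ActD. Their 28 rows summed to 5.91, 5.72 and 4.29 CPM with POLR1A depleted, 5.09, 4.62 and 6.05 CPM with POLR2A depleted, 1.78, 2.19 and 1.60 CPM with ActD, and 7.26, 4.62 and 8.70 CPM in controls. The ActD libraries lay below all others and the degron libraries overlapped the controls. The log2 differences from controls were -0.34, -0.34 and -1.85. With rows of at least 1 count in place of 20, which gave 596 rows, the POLR2A difference was 0.39, so its sign depended on the minimum.

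**Figure D4:**
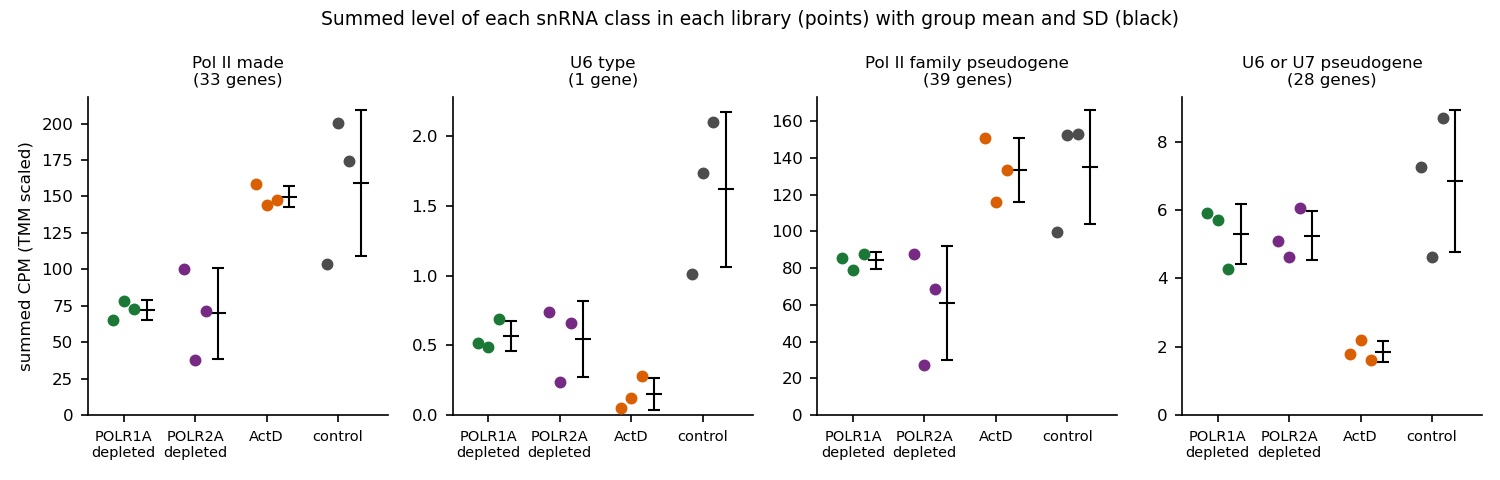
Summed TMM-scaled CPM of each class in every library (points; black, mean ± SD of 3), each panel from 0. ActD libraries are at 144 to 158 CPM for Pol II made members, inside the control range, and at 1.60 to 2.19 CPM for U6 and U7 pseudogenes, below every other library.

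Single U6 and U7 pseudogenes were too sparse for most tests. Just 2 of 28 were tested: RNU6-759P (chr20:35647328-35647430, minus strand), in an intron of CPNE1, was lower with ActD (-1.69 ± 0.70, edgeR adjusted p = 0.0454), a call lost without 4 of 6 single libraries, and RNU6-1016P passed in no comparison with controls. RNU6-759P had 0.0539, 0.319 and 0.141 CPM with ActD and 0.859, 0.600 and 0.351 CPM in controls. Without a filter on low counts, 12 of these 28 pseudogenes were lower with ActD, 0 with POLR1A depleted and 1 with POLR2A depleted, where 13.2%, 9.09% and 15.6% of 49388 genes were lower. Those 49388 genes were not held to the minimum of 20 counts that the 28 had to reach. The shares are thus not like for like. The lower ones with ActD included RNU6-1045P, RNU6-319P and RNU7-75P, each with 0 counts against 8, 12 and 12 in controls, at least 3.72-fold, 5.57-fold and 5.57-fold lower. Each had 20 counts in all, so none would have reached the minimum without its control counts. Their lower values were thus partly built in by the minimum.

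By position, of the 28 U6 and U7 pseudogenes 27 lay in introns of protein-coding genes, 11 on the strand of the host and 16 on the opposite strand, while 4 of 33 Pol II made members and 20 of 39 polymerase II family pseudogenes did. The 11 on the host strand averaged 2.61 ± 0.755, 2.46 ± 0.588, 0.727 ± 0.614 and 2.94 ± 0.974 CPM in POLR1A-depleted, POLR2A-depleted, ActD and control libraries, and the 16 on the other strand 2.51 ± 0.261, 2.51 ± 0.245, 0.872 ± 0.248 and 3.21 ± 1.13 CPM (SD, n = 3). Both sets were lowest with ActD. The kit kept strand, but the strand setting of the counting is not given in the sources used here, so reads of a host on the opposite strand could not be kept apart. Of the 27 host genes with ActD, 13 rose and 8 fell, with a median log2 fold change of 0.20, beside 24.9% and 28.5% of all genes. With POLR1A depleted 9 rose and 8 fell (median 0.04), beside 20.6% and 18.6%, and with POLR2A depleted 4 rose and 17 fell (median -0.32), beside 33.2% and 28.2%. CPNE1 itself rose with ActD (0.97, edgeR adjusted p = 3.82e-12). Levels of introns were not analysed here.

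Genes that make and carry snRNAs were taken as lists by textbook role. Their counts stand beside 20.6% of all genes higher and 18.6% lower in the POLR1A line, 33.2% and 28.2% in the POLR2A line, and 24.9% and 28.5% after ActD, and nothing particular to a list is read from them. Of 15 genes of snRNA transcription, 5 were higher and 5 lower in the POLR1A line, 2 and 11 in the POLR2A line, and 2 and 9 after ActD (medians 0.05, -0.48 and -0.41). SNAPC4, the largest SNAPc subunit, had log2 fold changes of -1.12 ± 0.08 in the POLR1A line, -0.88 ± 0.08 in the POLR2A line and -1.11 ± 0.08 after ActD. BRF2, the polymerase III factor of U6-type promoters, fell most with ActD (-3.23 ± 0.18, edgeR adjusted p = 1.58e-12), and TBP, the TATA-binding protein, by 1.45 on the log2 scale. ELL, part of the little elongation complex, rose by 0.80 with POLR1A depleted and fell by 2.08 with ActD.

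Of 15 genes of 3′ end formation (Integrator and TOE1), 4 were higher and 7 lower in the POLR1A line, 1 and 10 in the POLR2A line, and 8 and 5 after ActD. INTS7 fell by 1.47 with POLR2A depleted, and INTS5 by 2.06 with ActD. The 21 genes of export, assembly and Cajal bodies gave 1 higher and 10 lower, 0 and 16, and 6 and 9 in that order. COIL, the marker protein of Cajal bodies, fell by 1.82 with POLR2A depleted, and the SMN complex genes GEMIN4 and GEMIN7 by 2.41 and 2.79 with ActD. Medians of this list were -0.25, -0.52 and -0.14, and under mitochondrial scaling 0.11, -0.82 and 0.77, where the median of all genes was 0.37, -0.2 and 0.82.

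Genes of the particle proteins were listed next, with the same shares of all genes beside them. Of the 7 Sm genes, 3 were lower and 0 higher with POLR1A depleted, 3 lower and 1 higher with POLR2A depleted, and 4 higher and 0 lower with ActD, and SNRPD2 rose by 0.84 ± 0.07 with ActD. Of 24 genes of the major particles, 16 were higher and 3 lower with ActD (median 0.30), against 2 and 8 with POLR1A depleted and 4 and 12 with POLR2A depleted. SNRNP200, the helicase that unwinds U4 from U6, rose by 0.57 with ActD, and PRPF3, a U4/U6 protein, fell by 0.88 with POLR2A depleted. Of 13 U6 factors, 2, 4 and 6 were higher and 5, 6 and 5 lower. MEPCE, which caps the 5′ end of polymerase III RNAs, fell by 2.19 with ActD, and LSM8, of the ring that binds the U6 3′ end, rose by 1.01 with POLR2A depleted. Of 10 minor spliceosome genes, 3, 2 and 4 were higher and 3, 5 and 5 lower. All 4 genes around U7 (LSM10, LSM11, SLBP and ZNF473) fell with POLR2A depleted and with ActD, and 3 of the 4 with POLR1A depleted, where LSM10 rose by 0.27 (edgeR adjusted p = 0.0495). Scaled to mitochondrial mRNAs, where the median of all genes was 0.37 in the POLR1A line, 7 transcription, 5 assembly, 2 Sm and 7 major particle genes were higher there and 1, 3, 0 and 1 lower, with list medians of 0.41, 0.11, 0.10 and 0.25. After ActD, where the median of all genes was 0.82, 9 transcription genes were higher and 3 lower (median 0.51), and 1 of the U7 genes was lower (median -0.09).

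Other polymerase III RNAs gave a comparison for RNU6ATAC. Of 14 genes listed, 13 were in the table and 8 tested, of which 0 passed with POLR1A depleted (2 at an unadjusted p under 0.05 by edgeR), 2 rose with POLR2A depleted, and 4 rose and 1 fell with ActD. RN7SL1, the RNA of the signal recognition particle, had 11330, 12830 and 14850 CPM with POLR1A depleted, 19760, 12520 and 17910 CPM with POLR2A depleted, 25500, 20720 and 27120 CPM with ActD, and 10760, 11460 and 9859 CPM in controls. It rose with POLR2A depleted (0.65 ± 0.18, edgeR adjusted p = 0.0129) and with ActD (1.19 ± 0.18, adjusted p = 0.000462), while RNU6ATAC fell in both. The falls of RNU6ATAC were partly built in, as it met the filter in controls alone. Its POLR2A call was lost without POLR2A-depleted library 2 or control library 3. BCYRN1, a neuronal-type cytoplasmic RNA, fell with ActD (-2.07 ± 0.36, adjusted p = 0.00106).

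**Figure D5:**
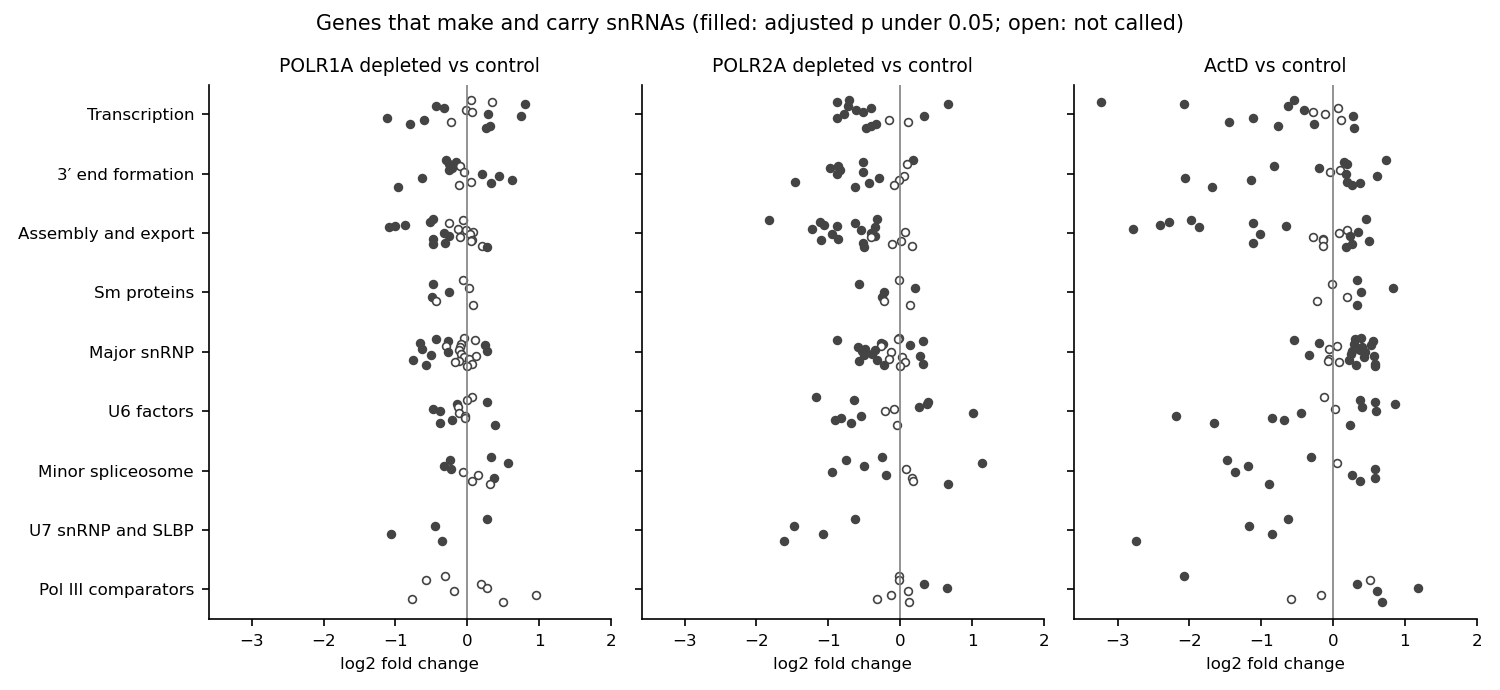
Log2 fold change against controls of each tested gene of 9 lists (rows) in the 3 treatments; filled points passed an adjusted p of 0.05. With ActD, 16 of 24 major particle genes are filled to the right of 0 and 4 of 4 genes around U7 to the left.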

How the data were processed

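Total RNA was sequenced in 12 libraries of HCT116 cells, grouped by sample title. As deposited, each gene had an estimated count per library, of which 76.1% were whole numbers. Among the tools in the submitters' processing notes are RSEM 1.3.3, STAR and HTSeq 2.0.2, with no step named for any. How counting treated strand, and on which annotation release it ran, is not given in the sources used here. Such values divide reads that similar genes share, so single copies of a family are uncertain, and so are genes that overlap another.

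Counts were rounded and tested with edgeR 4.0.16 in R 4.3.3: filterByExpr, which left 23593 genes, TMM scaling, and 1 quasi-likelihood fit of 4 groups over all 12 libraries with robust moderation (8 residual degrees of freedom). The threshold was an adjusted p of 0.05, by Benjamini-Hochberg over all genes tested. CPM values are TMM-scaled, with SD over the 3 libraries of a group; fold changes have the fit's SE. Class sums have no test. Where a group had no counts the fold was bounded at 3 counts for the group, and where it had 1 to 3 counts the ratio has an exact binomial 95% interval. Both cover counting error only.

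Positions, sequences and host genes came from GENCODE 29 on GRCh38 by Ensembl identifier. Classes follow the symbol, with a final P as a pseudogene. All members of the classes without a final P were to be named, the 5 pseudogenes highest in CPM, the 3 highest and 3 lowest called pseudogenes without overlap in each comparison with controls, and up to 3 called genes with the largest changes per list. Members and lists were chosen with earlier results of these data known. This test was first run on simulated data. Alternatives were other scalings, filters and count minimums, DESeq2 1.42.0, a replicate block, unrounded counts, summed identical sequences and left-out libraries.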

Additional observations from a re-analysis of the deposited data

How the results depend on the processing

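Scaled to mitochondrial mRNAs, the members called were 9 higher with ActD, 12 between POLR1A and POLR2A depletion, 16 between ActD and POLR1A depletion and 28 between ActD and POLR2A depletion. The median log2 fold changes of all genes were then 0.82, 0.56, 0.41 and 1.02. Shares of all genes called under that scale are not given here, so nothing particular to the members is read from these counts. With that scale the class sums moved to 0.89 (Pol II made, ActD), -0.29 and 0.93 (polymerase II family pseudogenes, POLR1A depleted and ActD) and -0.93 (U6 and U7 pseudogenes, ActD), and the log2 fold changes were 0.18 for RNU2-2P with POLR1A depleted, where the median of all genes was 0.37, and 0.84, 0.95 and 0.86 for RNU1-67P, RNU4-1 and RNU4-2 with ActD, where it was 0.82. Without a filter, 101 members were tested, of which 1 was higher with POLR1A depleted (RNU1-3) and 29 were lower with ActD, beside 9.44% and 13.2% of all genes. Between treatments 11, 25 and 29 were called in the order above. Of all genes, 15.7% were higher and 20.7% lower, 13.5% and 14.6%, and 17.9% and 25% there. Those genes were not held to the members' minimum of 20 counts, so the shares are not like for like. Fitting only the 2 groups compared, which tested fewer members, gave 11 lower with POLR2A depleted, 1 between the degron lines and 8 between ActD and POLR2A depletion. The U6 and U7 pseudogene sum was 0.14, 1.07 and -1.32 in the POLR1A line, the POLR2A line and ActD for the 1 row with 100 counts or more, and 0.39 in the POLR2A line for rows with 1 or more. RNU4-1 with ActD, near 0, was 0.01 with DESeq2 and 0.05 without a filter. The cause of these shifts was not tested.

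Leaving out single libraries gave 8 to 14 lower and 0 to 1 higher with POLR1A depleted, 14 to 23 lower and 0 to 1 higher with POLR2A depleted, 7 to 10 lower with ActD, and 3 to 7, 6 to 9 and 9 to 17 called between treatments. The calls that held without each single library in turn numbered 4 of 15 with POLR1A depleted, 11 of 22 with POLR2A depleted and 6 of 8 with ActD. Those 6 with ActD had all met the filter in controls alone. The ActD log2 fold changes ran between -0.30 and 0.19 for RNU4-1, -0.37 and 0.08 for RNU1-67P, -0.37 and 0.16 for RNU4-2 and -0.17 and 0.66 for RNVU1-7. Without control library 1 and POLR2A-depleted library 2, 13 were lower with ActD, 17 with POLR1A depleted and 14 called between ActD and POLR1A depletion, and the ActD log2 fold changes of RNVU1-7 and RNU1-67P were -0.18 and -0.38. Replicate numbers did not pair the libraries (18 same-number correlations of deviations between -0.06 and 0.04), and the replicate block gave 3 called between the degron lines. Most members held under 100 counts, which limits their tests.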
